A study of Mus musculus with 18 samples.

Results

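Mouse chromosome 16 was followed here as a partner of 2 cytokine genes that lie on other chromosomes, Ifng on chromosome 10 and Il4 on chromosome 11. All 14928 array probes on chromosome 16 were taken, of 384942 probes on the array, and none was picked by its own value. They run from position 3151161 to 98245863 with a median spacing of 4953 bases and fill 190 bins of 500 kb, of 5021 bins in the genome. The chromosome itself was chosen because its signal was high in 3T3-L1 cells, so every value of 3T3-L1 against T cells below is a description and carries no test. The chromosome is called raised in 3T3-L1, and its mean level is, but unevenly along its length, with the largest differences in separate domains. Against wild-type T cells the difference was above 0 in 137 of 190 bins and in 13 of 16 bands. The median bin differed by 0.039, beside 0.0065 over all bins of the genome. In 3 of 16 bands the 3T3-L1 mean lay below that of wild-type T cells, but in 0 bands did both 3T3-L1 arrays lie below all 6 of their arrays.

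The assay was 4C, which reports the DNA that lies near a chosen gene, the bait, inside the nucleus. Contacts of the bait were labelled with Cy5 and hybridised against cut genomic DNA labelled with Cy3, and each value is the log2 ratio of the 2 colours, minus the median of the array's probes off the bait chromosome. A level of 0 is therefore the middle of the rest of that array's genome. There were 18 arrays in 9 groups of 2 arrays. Arrays of the Ifng bait cover the 3T3-L1 line and CD4 T cells that were naive, Th1, Th2, or Th1 with a Stat4 knockout. Arrays of the Il4 bait cover CD4 T cells that were naive, Th1, Th2, or Th2 with a Stat6 knockout. The treatment label is Th1 or Th2 for the differentiated cells, knockouts included, and none for naive and 3T3-L1 cells, and no age or strain was given. No Il4 array of 3T3-L1 cells was analysed here. 3T3-L1 is an established preadipocyte line of mouse embryo origin, so both of its arrays come from 1 line.

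Chromosomes occupy separate territories in the nucleus, and most contacts of a gene fall on its own chromosome. Contacts with other chromosomes are rare and are spread over long domains, and active, gene-rich domains tend to meet each other more than silent ones. Naive CD4 T cells become Th1 cells, which make interferon gamma from Ifng, or Th2 cells, which make interleukin 4 from Il4, with STAT4 acting in the first path and STAT6 in the second, both as transcription factors.

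Some labels go against others. On both colours the 3T3-L1 samples have primary T cells as their characteristic, so the labels do not settle which cells gave the genomic DNA that the 3T3-L1 signal was divided by. The protocol describes adherent cells and other baits, and the design text counts 1 array of pooled replicates without saying which. A number in each array's name was read here as a serial number, which is an inference. By its first digits the 3T3-L1 and both knockout groups form series of their own, so series and group cannot be told apart there. Across chromosome 16 bins the replicates correlated with r = 0.85 in 3T3-L1, 0.83 in naive, 0.57 in Stat4 knockout, 0.46 in Th2 and 0.13 in Th1 cells with the Ifng bait. Th1 replicate 2 of the Ifng bait correlated more with Th2 replicate 2 of the Il4 bait (r = 0.56) than with its own replicate, so the main counts that use it are also given without it. The signal between 1 and 2 Mb from the bait averaged 1.00 ± 0.0045 (SD, n = 2) in 3T3-L1, 0.83 ± 0.26 in Th1, 1.56 ± 0.0011 in Stat4 knockout, 1.98 ± 0.069 in naive and 2.41 ± 0.21 in Th2 cells.

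Sequence of the bins themselves was not used here, but RefSeq promoters (build GRCm38.p6, 250 bases before the start of transcription) show where the assay could cut at named genes. The array signal depends on 2 enzymes, HindIII, which cuts AAGCTT, and Csp6I, which cuts GTAC. Both sites read the same on both strands and do not overlap each other. Of 1078 promoters on chromosome 16, each of 300 bases with the 50 after the start, 7.42% held AAGCTT and 35.5% held GTAC, against 7.45% and 35.8% of all 32851 promoters. Of 60 listed genes 46 had a promoter entry, 56 entries in all, and 17 of the entries held GTAC while 0 held AAGCTT. The 3 promoters that follow were chosen after the values were seen, for the bands that stood out: Runx1, a transcription factor of blood cell development, in band qC4, and Lsamp, a neuronal adhesion protein, and Tigit, an inhibitory receptor of T cells, in band qB4. Capitals mark GTAC.
Runx1 (chr16:92697330-92697579, minus strand): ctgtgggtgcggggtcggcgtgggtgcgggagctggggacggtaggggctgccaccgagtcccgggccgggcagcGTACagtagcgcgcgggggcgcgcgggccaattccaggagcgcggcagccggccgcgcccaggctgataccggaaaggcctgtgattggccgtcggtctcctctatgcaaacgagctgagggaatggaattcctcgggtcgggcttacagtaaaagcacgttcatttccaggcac
Lsamp (chr16:39984114-39984363, plus strand): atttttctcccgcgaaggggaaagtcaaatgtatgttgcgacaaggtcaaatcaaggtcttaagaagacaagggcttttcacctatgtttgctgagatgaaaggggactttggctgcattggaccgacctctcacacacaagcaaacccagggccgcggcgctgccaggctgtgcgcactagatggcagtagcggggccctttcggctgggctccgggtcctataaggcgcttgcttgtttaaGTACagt
Tigit (chr16:43664185-43664434, minus strand): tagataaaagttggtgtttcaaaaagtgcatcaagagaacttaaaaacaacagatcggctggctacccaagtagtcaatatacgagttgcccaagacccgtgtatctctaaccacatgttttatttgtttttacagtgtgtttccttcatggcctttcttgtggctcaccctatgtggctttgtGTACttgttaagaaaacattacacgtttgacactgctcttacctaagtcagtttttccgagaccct
Each of these stretches held 1 GTAC site. These positions are in GRCm38.p6, another build than that of the array bins (mm8, inferred from the probe positions), and the coordinates are not interchangeable.

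Over the whole chromosome, the mean level with the Ifng bait was 0.112 and 0.104 in the 3T3-L1 arrays. It was 0.038 and 0.026 in naive, 0.046 and 0.036 in Th1, 0.039 and 0.047 in Th2, and 0.052 and 0.057 in Stat4 knockout cells. Both 3T3-L1 arrays lay above all 8 T cell arrays of the Ifng bait, with a gap of 0.047 to the closest. With the Il4 bait the 8 T cell arrays spanned 0.003 to 0.046, with a middle value of 0.018.

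In group means, chromosome 16 stood at 0.108 ± 0.0061 (SD, n = 2) in 3T3-L1. That was 0.076 above naive, 0.067 above Th1, 0.065 above Th2 and 0.053 above Stat4 knockout cells, and 0.069 above the mean of the 3 wild-type T cell groups. These differences share the 3T3-L1 arrays. The middle probe shifted less: the median over probes was 0.035 and 0.025 in 3T3-L1 and between -0.020 and 0 in the 8 T cell arrays. An array's highest 5% of probes off the bait chromosome held 8.06% and 7.84% of the chromosome 16 probes in 3T3-L1, against 4.51% to 5.34% in those T cell arrays.

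Chromosome 16 ranked first of the 20 chromosomes off the bait in both 3T3-L1 arrays. In the 8 T cell arrays of the Ifng bait its rank ran from 8 to 19, and in the 8 Il4 arrays from 6 to 18. In 3T3-L1 the next highest chromosome, chromosome 5, stood at 0.065 and 0.068. Chromosome 16 also had the largest difference between 3T3-L1 and wild-type T cells, 0.069, followed by chromosome 6 with 0.033, chromosome 1 with 0.026 and chromosome 5 with 0.021.

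**Figure D1:**
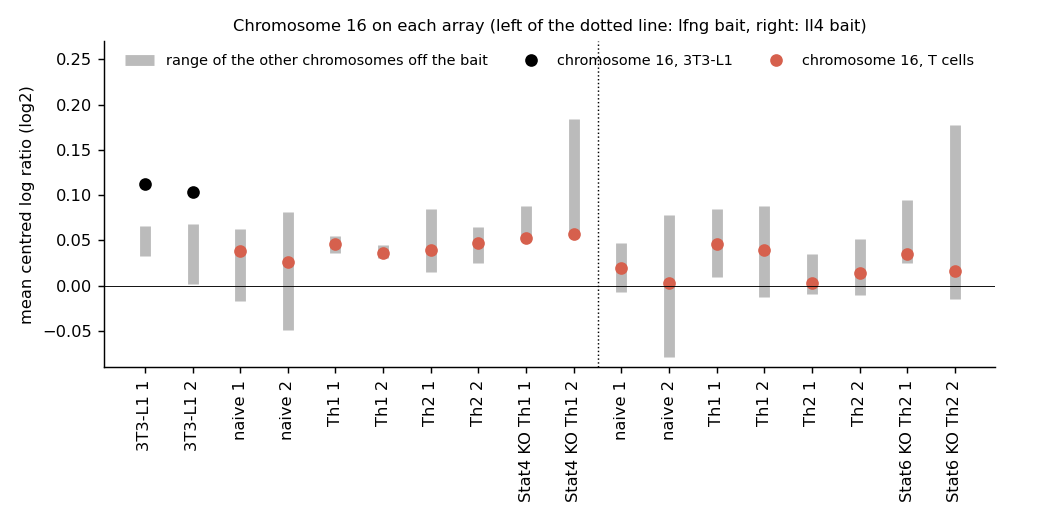
Mean centred log ratio (log2) of chromosome 16 on each of the 18 arrays (points), with the range of the other chromosomes off the bait on the same array (grey bars, chromosome Y left out); the 3T3-L1 points, 0.112 and 0.104, lie above their bars, and all T cell points of the Ifng bait lie at or below 0.057.

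The chromosomes whose mean moved most like that of chromosome 16 over the 10 Ifng arrays were chromosome 6 (r = 0.79), chromosome 1 (r = 0.65) and chromosome 5 (r = 0.65). Chromosome 12 was close behind (r = 0.65). Over the 8 T cell arrays alone chromosomes 6, 1 and 5 had 0.90, 0.88 and 0.78. Chromosomes 12 (0.91), 18 (0.90), 14 (0.89) and 3 (0.88) were as high there, so that likeness was not particular to those named first. The points share arrays and centring, and the values are a description.

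The rise in 3T3-L1 was not spread evenly along the chromosome. Against the 3 wild-type T cell groups, 49 of the 190 bins passed limma's adjusted p of 0.05, beside 12.2% of all bins in the genome: 43 were higher in 3T3-L1 (6.65% of all bins) and 6 were lower (5.6%). The contrast chose the chromosome, so these counts are descriptive. The count of 49 was 30 without 3T3-L1 replicate 1, 29 without 3T3-L1 replicate 2 and 43 without Th1 replicate 2. The 43 higher bins cover 21.5 Mb and held 87.2% of the net summed difference, and the 6 lower bins had a mean difference of -0.19. These bins were called for that difference, so a large share and a wide gap inside them were set by the choice. In the other 141 bins 3T3-L1 stood at 0.060, against 0.028 in naive, 0.047 in Th1, 0.047 in Th2 and 0.057 in Stat4 knockout cells. Inside the 43 bins it stood at 0.265, and the T cell groups of the Ifng bait lay between -0.014 and 0.032. By share of bins called higher, chromosome 16 had 22.6%, chromosome 6 had 14.0%, chromosome 5 had 10.0% and chromosome 1 had 9.16%.

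At the threshold, the last bin inside (chr16:63500001-64000000) had 0.13 in 3T3-L1 and -0.01 in wild-type T cells, and the first outside (chr16:8500001-9000000) had 0.26 and 0.10. Called bins in which both 3T3-L1 arrays lay above, or both below, all 6 wild-type T cell arrays were joined where they touched, which gave 13 higher regions of 42 bins and 3 lower regions of 3 bins. Whether called or not, 59 of the 190 bins, or 31.1%, had arrays of the compared groups that did not overlap, beside 19.4% of all bins.

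**Figure D2:**
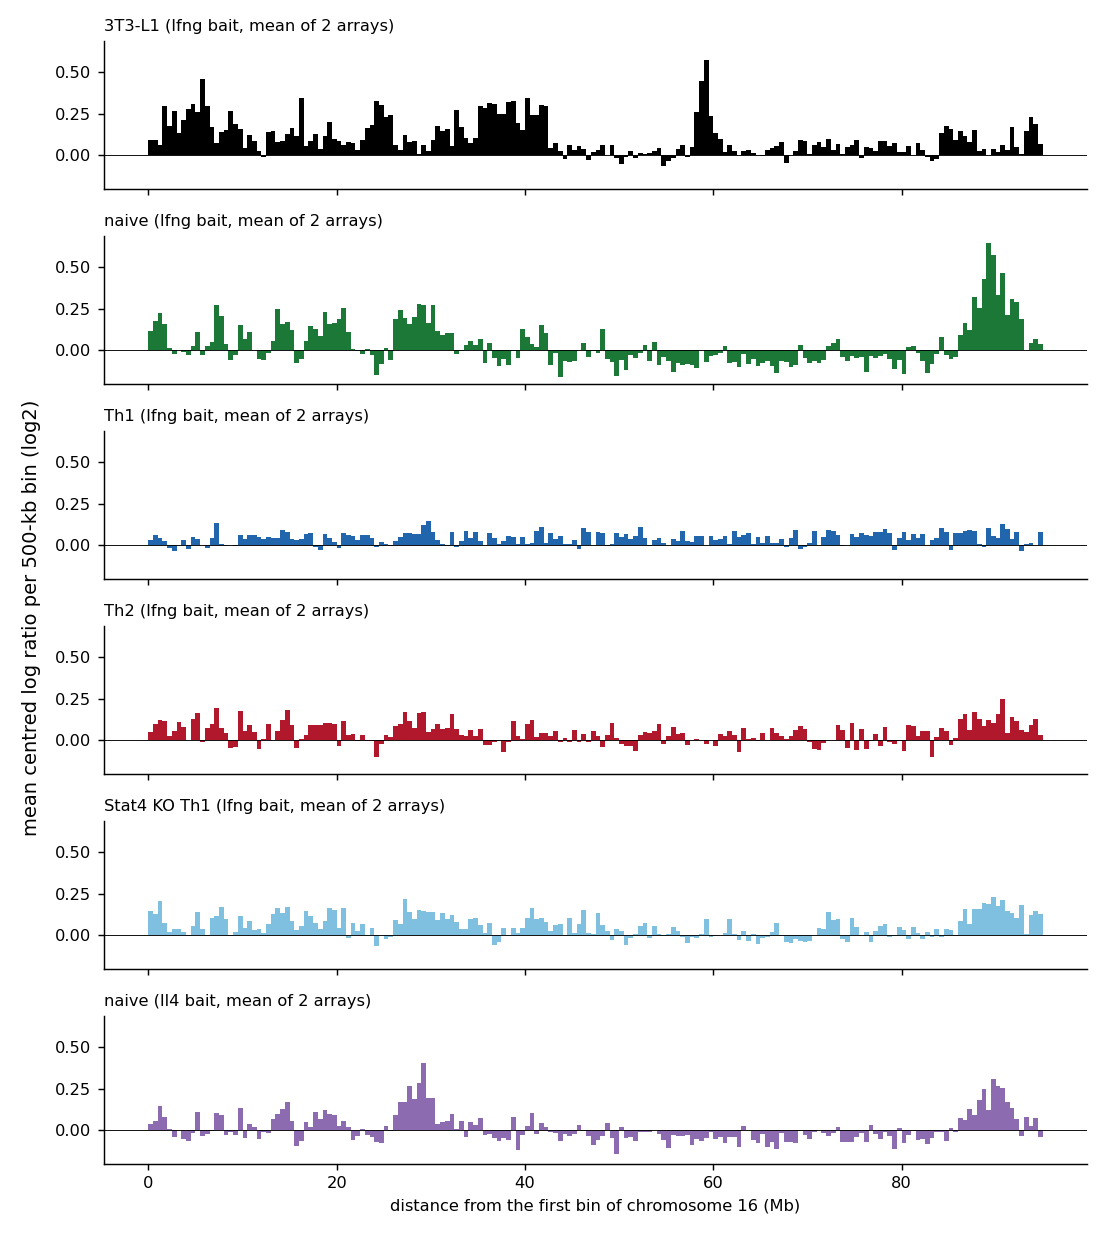
Mean centred log ratio (log2) of each 500-kb bin along chromosome 16, by distance from the first bin in Mb, each row the mean of the 2 arrays of a group. 3T3-L1 rises in blocks toward the start and in a narrow peak of 0.57 near 60 Mb. Naive cells with either bait rise near the far end, in band qC4. The band means were 0.29 in naive cells with the Ifng bait, 0.14 with the Il4 bait and 0.08 in 3T3-L1.

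The highest 3T3-L1 bin of the chromosome was chr16:62500001-63000000 in band qC1.3, a dark band, with a mean of 0.57 over its 2 arrays, against -0.07 in naive, 0.00 in Th1, -0.02 in Th2 and 0.10 in Stat4 knockout cells. The region around it, chr16:61500001-64000000 with 386 probes, had 0.34 and 0.32 in 3T3-L1. The 6 wild-type T cell arrays ran from -0.09 to 0.05 with a median of 0.00, the Stat4 knockout arrays had 0.02 and 0.00, and the 8 Il4 arrays ran from -0.09 to 0.05. The 3T3-L1 arrays stood apart from all 16 T cell arrays there. Here and in the regions below, separation from the 6 wild-type T cell arrays was set by how regions were chosen. The Il4 arrays have another bait. Of the region's probes, 19.9% and 18.9% lay among the array's highest 5% in 3T3-L1, against 2.33% to 5.44% in wild-type T cells.

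In bins of 100 kb the peak centred on chr16:62500001-62600000, with 1.42 and 1.10 in the 3T3-L1 arrays from 10 probes. The T cell arrays of the Ifng bait, against which the bin was picked, ran from -0.19 to 0.26 in it. Both 3T3-L1 arrays lay above all 8 of them in an unbroken run of 1000 kb, chr16:62200001-63200000. The 10 bins of that run hold 10 to 21 probes each, which limits the precision of each point.

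**Figure D3:**
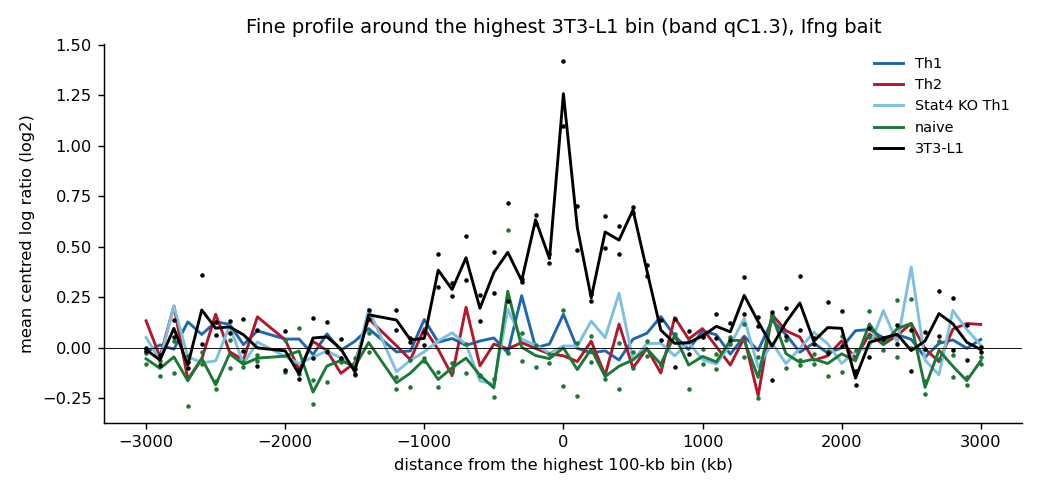
Mean centred log ratio (log2) in 100-kb bins against distance in kb from the highest 3T3-L1 bin, lines being means of 2 arrays with the Ifng bait and dots the single naive and 3T3-L1 arrays; the 3T3-L1 line reaches 1.26 at the centre, and the single T cell arrays run from -0.19 to 0.26 there.

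The longest raised domain lay in band qB4. Region chr16:38500001-43000000, 9 bins with 742 probes, had 0.30 and 0.26 in 3T3-L1. The 6 wild-type T cell arrays ran from -0.05 to 0.05 with a median of 0.00, the Stat4 knockout arrays had 0.02 and 0.01, and the Il4 arrays ran from -0.06 to 0.02. No T cell array reached the 3T3-L1 level, and 15.9% and 14.7% of the probes were among the highest 5% in 3T3-L1, against 2.43% to 5.93%.

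Toward the start of the chromosome, band qA1 held 2 of the 6 raised regions with the largest change. In chr16:9000001-10000000, with 186 probes, 3T3-L1 had 0.35 and 0.40 and the wild-type T cell arrays ran from -0.02 to 0.06. This was the largest mean change of a region, 0.37, and 20.4% and 22.6% of its probes were among the highest 5% in 3T3-L1. In chr16:12000001-13000000, 3T3-L1 had 0.22 and 0.24 and the wild-type T cell arrays ran from -0.08 to 0.00. Neither region overlapped between 3T3-L1 and any of the 16 T cell arrays.

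Regions between these were raised by similar amounts. In band qB2, chr16:26500001-29500000 had 0.26 and 0.22 in 3T3-L1 and -0.07 to 0.03 in the wild-type T cell arrays. In band qA3, chr16:19000001-20000000 had 0.24 and 0.21 against -0.07 to 0.08. Naive cells had -0.03 and -0.07 in the first and -0.06 and -0.07 in the second, and the 3T3-L1 arrays lay above every T cell array in both.

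Of the 6 bins called lower in 3T3-L1, the arrays did not overlap in 3. In chr16:92500001-93000000 of band qC4, it had 0.00 in both arrays, while naive cells had 0.62 and 0.67, Stat4 knockout 0.16 and 0.22, Th2 0.10 and 0.15, and Th1 0.10 in both. In chr16:93500001-94000000 of the same band, it had 0.01 and 0.02 against 0.04 to 0.35 in wild-type T cells. In chr16:32000001-32500000, at the edge of qB2 and qB3, it had 0.00 and 0.01 against 0.07 to 0.32. The Il4 arrays had 0.09 to 0.42 in the last bin, so T cells of either bait were above 3T3-L1 there. Without either 3T3-L1 array the bins chr16:32000001-32500000 and chr16:93500001-94000000 were no longer called.

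By the median of a bin's probes in place of the mean, the 6 raised regions kept their direction and their call but were smaller: 0.23 for chr16:9000001-10000000 in place of 0.37, 0.17 for chr16:38500001-43000000 in place of 0.28, and 0.12 for chr16:12000001-13000000 in place of 0.26. The lower bin chr16:92500001-93000000 went from -0.29 to -0.08 and was no longer called.

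The 16 cytogenetic bands of the chromosome, read from their levels, divide in the same way. Both 3T3-L1 arrays lay above all 6 wild-type T cell arrays in 6 bands (15.4% of all bands), qA1, qA3, qB2, qB4, qC1.3 and qC3.1, and below all of them in 0 bands. The band with the largest difference was qB4, with 0.28 and 0.26 in 3T3-L1 and -0.03 to 0.05 in wild-type T cells, a difference of 0.25. Next came qA1, with a difference of 0.14, qC1.3 with 0.13 and qB2 with 0.11. In qC1.1, with 0.04 and -0.02 in 3T3-L1, and in qC2, with 0.05 and 0.00, the arrays of 3T3-L1 and T cells overlapped.

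Dark bands stood at 0.128 ± 0.0076 (SD, n = 2) in 3T3-L1 and at 0.006 ± 0.015 in naive cells. Dark did not mean gene-poor here: dark qA3 had the most coding genes per Mb, 19.5, and light qC2 had 0.27. Light bands stood at 0.071 ± 0.0034 and 0.081 ± 0.0024. Without qC4 the light bands were at 0.069 in 3T3-L1 and 0.031 in naive cells. Th1 cells had 0.040 in dark and 0.042 in light bands (0.048 and 0.043 without replicate 2), and Th2 cells 0.035 and 0.059. Across the 16 bands the level correlated with coding genes per Mb with r = 0.16 in 3T3-L1, 0.44 in naive, -0.04 in Th1 (-0.39 without replicate 2), 0.32 in Th2 and 0.61 in Stat4 knockout cells, and with r = 0.45 to 0.75 in the 4 Il4 groups. The difference between 3T3-L1 and wild-type T cells had r = -0.06 with coding genes per Mb. The bands differ in length and probe number and gene counts come from another build, so these are descriptions.

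**Figure D4:**
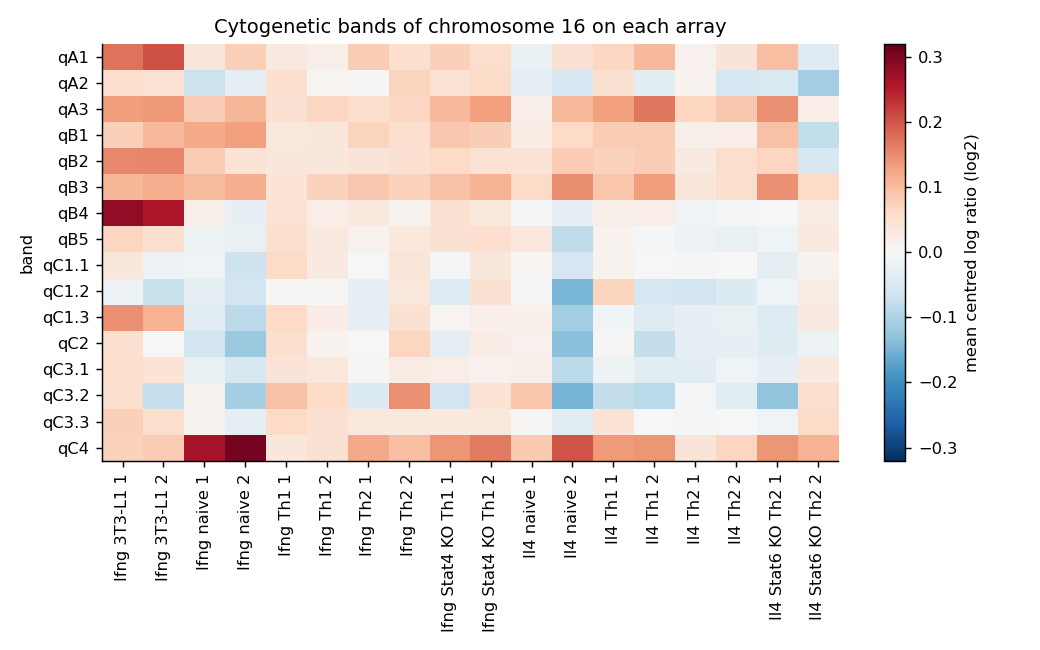
Mean centred log ratio (log2, colour) of the 16 bands of chromosome 16 (rows) on the 18 arrays (columns); qB4 is high in the 3T3-L1 columns alone, and qC4 is highest in the naive columns of the Ifng bait, 0.26 and 0.31.

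Genes can be placed only by band, so the bins that changed may lie elsewhere in the band than the genes named with it. Of 679 coding genes 646 lay inside a band, 205 of them in the 4 bands most raised in 3T3-L1 (qB4, qA1, qC1.3 and qB2) and 50 in qC4. Of 15 immune regulators 7 lay in the 4 raised bands. In qB4 these were Cd80, a ligand that costimulates T cells, Tigit, and Cd200r1, an inhibitory receptor of myeloid cells. In qA1 they were Socs1, a feedback inhibitor of cytokine signalling, Ciita, the master activator of MHC class II genes, and Litaf, and in qB2 Il1rap, a subunit of interleukin 1 receptors. Btla, Cd96, Cblb and Retnla lay in qB5, where 3T3-L1 had 0.07 and 0.05 and Th1 cells 0.05 and 0.03.

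Of 10 adipocyte and mesenchymal genes 2 lay in the 4 raised bands, Snai2, a mesenchymal transcription factor, in qA1, and Hes1, a Notch target, in qB2. Adipoq, which encodes the adipocyte hormone adiponectin, and Lpp lay in qB1, where 3T3-L1 had 0.08 and 0.10 and wild-type T cells 0.03 to 0.13, naive cells being highest with 0.12 and 0.13. Cebpd, an early adipogenic transcription factor, lay in qA2, with 0.05 in both 3T3-L1 arrays and -0.07 to 0.07 in wild-type T cells. Of 13 neuronal genes 12 were placed and 5 lay in the raised bands: Lsamp and Gap43 in qB4, Epha3 and Epha6 in qC1.3, and Grin2a in qA1. The median difference of the band was 0.04 for the immune list, 0.04 for the adipocyte list, 0.05 for the neuronal list and 0.04 for all placed coding genes.

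Of 5 blood transcription factors 0 lay in the raised bands and 3, Runx1, Erg and Ets2, lay in qC4. The same band holds Mx1 and Mx2, interferon-induced antiviral genes, Dscam and Kcnj6 of the neuronal list, and Hmgn1 and Psmg1 of the broadly expressed genes. The receptor chains Ifnar1, Ifnar2, Ifngr2 and Il10rb lay in qC3.3, where 3T3-L1 had 0.08 and 0.06 and wild-type T cells -0.03 to 0.06. Ifngr2 is a chain of the receptor for the product of Ifng. The B cell genes Igll1 and Vpreb1, parts of the surrogate light chain, lay in qA3, with Dgcr8 and Ranbp1 of the broadly expressed list, of which 1 of 9, Crebbp, lay in a raised band (qA1).

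Across the 190 bins the 3T3-L1 arrays correlated with the 8 T cell arrays of the Ifng bait with r from -0.26 to 0.26, and with the 8 Il4 arrays from -0.24 to 0.23. The naive arrays of the Ifng bait correlated with the Stat4 knockout arrays with r from 0.59 to 0.69 and with the naive arrays of the Il4 bait from 0.34 to 0.83.

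The next counts set 3T3-L1 against each T cell group apart. Against naive cells 74 bins were called, 55 higher and 19 lower, beside 24.2%, 12.8% and 11.4% of all bins. Against Th1 cells 34 were called, all higher, beside 3.86% of all bins (2.79% higher and 1.08% lower). Against Th2 cells 32 were called, all higher, beside 5.82% (2.37% higher and 3.45% lower). Against Stat4 knockout cells 30 were higher and 2 lower, beside 5.74% (1.79% higher and 3.94% lower). These counts moved with single arrays. Without 3T3-L1 replicate 1 they were 36 against naive, 18 against Th1, 19 against Th2 and 19 against Stat4 knockout cells, and without 3T3-L1 replicate 2 they were 53, 19, 20 and 19. Without naive replicate 2 there were 44 against naive, without Th1 replicate 2 there were 20 against Th1, and without Stat4 knockout replicate 2 there were 20 against the knockout. A set of 27 bins was called higher against each of the 4 groups, beside 1.12% of all bins, and 57 against at least 1, beside 13.3%. All 43 bins raised against the wild-type T cells had a positive difference against each group. For naive, Th1 and Th2 cells that sign was largely set by how the bins were called. The largest difference lay in chr16:62500001-63000000 in all 4 comparisons: 0.65 against naive, 0.57 against Th1, 0.60 against Th2 and 0.48 against Stat4 knockout cells. The 3T3-L1 arrays are shared by these comparisons.

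The comparisons of T cells with each other set no 3T3-L1 level against T cells, although with the Ifng bait the 3T3-L1 arrays enter the fit's shared estimate of the spread. Their largest differences with the Ifng bait lay in qC4, which was highest in naive cells. Per array, qC4 had 0.26 and 0.31 in naive, 0.14 and 0.17 in Stat4 knockout, 0.12 and 0.10 in Th2, and 0.04 and 0.05 in Th1 cells. The arrays of these 4 groups did not overlap in that order, and 3T3-L1, with 0.07 and 0.08, lay between Th1 and Th2. In 500-kb bins the naive arrays were highest in chr16:92500001-93000000, with 0.62 and 0.67.

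Between Th1 and naive cells 27 of the chromosome's bins differed, or 14.2%, beside 11.8% of all bins. In Th1 cells 9 were higher (4.74%, beside 3.96%) and 18 lower (9.47%, beside 7.79%). The largest change was the region chr16:91000001-94500000, with 0.40 and 0.46 in naive and 0.05 and 0.07 in Th1 cells, a mean change of -0.37. Its best bin, chr16:92500001-93000000, fell by 0.54 ± 0.05 (SE; limma, adjusted p = 1.3e-07). The region chr16:95000001-96500000 fell from 0.24 and 0.28 to -0.01 and 0.07, and its best bin had an adjusted p of 0.00179 in limma. The bin chr16:32000001-32500000 fell by 0.21 ± 0.05 (limma, adjusted p = 0.0157). The call of the second region was lost without Th1 replicate 1, and that of the last bin without Th1 replicate 1, Th1 replicate 2 or naive replicate 1.

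The 3 highest-ranked of the bins that were higher in Th1 cells were all below 0 in naive cells. Bin chr16:53000001-53500000 had -0.075 and -0.23 in naive and 0.13 and 0.01 in Th1 cells (limma, adjusted p = 0.0232). Bin chr16:83500001-84000000 had -0.13 and -0.16 against 0.12 and 0.04 (limma, adjusted p = 0.00939). Bin chr16:47000001-47500000 had -0.19 and -0.14 against 0.08 and 0.03 (limma, adjusted p = 0.00575). All 3 lost the call without Th1 replicate 1, and the first 2 also without naive replicate 2. The SD over the chromosome's bins averaged 0.048 in Th1 and 0.139 in naive cells.

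The count of called bins for Th1 against naive cells depended on single arrays. It was 13 without Th1 replicate 2, 8 without Th1 replicate 1 and 11 without naive replicate 2, and it was 3 when each array was scaled by the spread of its bins. Under all 10 alternatives that kept 500-kb bins a call remained inside the region chr16:91000001-94500000. It did not remain in all of the region's bins, as the 3 called with scaling show. The signal near the bait was lower in Th1 than in naive cells, 0.83 against 1.98, and its part in these differences was not tested.

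Between Th2 and naive cells 9 of the chromosome's bins differed, or 4.74%, beside 5% of all bins. In Th2 cells 3 were higher (1.58%, beside 1.61%) and 6 lower (3.16%, beside 3.39%). These counts are close to the shares over all bins. Region chr16:92000001-93500000 had 0.52 and 0.57 in naive and 0.10 and 0.11 in Th2 cells, a mean change of -0.44, and its best bin fell by 0.52 ± 0.05 (limma, adjusted p = 2.83e-07). The bin chr16:23500001-24000000 had 0.21 and 0.17 against -0.04 and -0.03 (limma, adjusted p = 0.00497), and chr16:33500001-34000000 had 0.19 and 0.35 against 0.11 and 0.02 (limma, adjusted p = 0.0367). Higher in Th2 cells were chr16:59000001-59500000 by 0.21, chr16:86000001-86500000 by 0.19 and chr16:70000001-70500000 by 0.18 (limma, adjusted p = 0.00687, 0.0416 and 0.0426). In all 3 the naive arrays were the lowest of the Ifng arrays. Of these 5 single bins, chr16:59000001-59500000, chr16:70000001-70500000 and chr16:33500001-34000000 lost the call without Th2 replicate 2, chr16:70000001-70500000 and chr16:86000001-86500000 without Th2 replicate 1, and chr16:33500001-34000000, chr16:70000001-70500000 and chr16:86000001-86500000 without naive replicate 2. Inside region chr16:92000001-93500000 a call remained under all 10 alternatives that kept 500-kb bins, but not in all of its bins. With serial series as a block 2 bins were called, and leaving out naive replicate 1 gave 16. Both comparisons share the naive arrays.

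By bands, 10 of 16 differed between Th1 and naive cells (38% of all bands, 27.1% higher and 10.9% lower). qC4 fell by 0.24 ± 0.02 (limma, adjusted p = 0.000254), and qB1 and qB3 were lower by smaller amounts, -0.09 and -0.05. The other 7, qA2, qB5, qC1.1, qC1.3, qC2, qC3.1 and qC3.3, were higher in Th1, by 0.06 to 0.12. Without naive replicate 2 or without Th1 replicate 1 a single band was called, and without Th1 replicate 2 or naive replicate 1 there were 9, qC4 being called in all 4 such fits. Between Th2 and naive cells qC4 fell by 0.18 ± 0.02 (limma, adjusted p = 0.00323) and qB1 by 0.06 ± 0.02 (limma, adjusted p = 0.0497), beside 5.99% of all bands (2.6% lower). Without Th2 replicate 2 neither band was called, and qB1 was called in none of the 4 fits that left out an array. As a whole chromosome, chromosome 16 differed in none of the 9 comparisons without 3T3-L1 (limma, smallest adjusted p = 0.0736, for Stat4 knockout against Th1; 2 had an unadjusted p under 0.05).

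**Figure D5:**
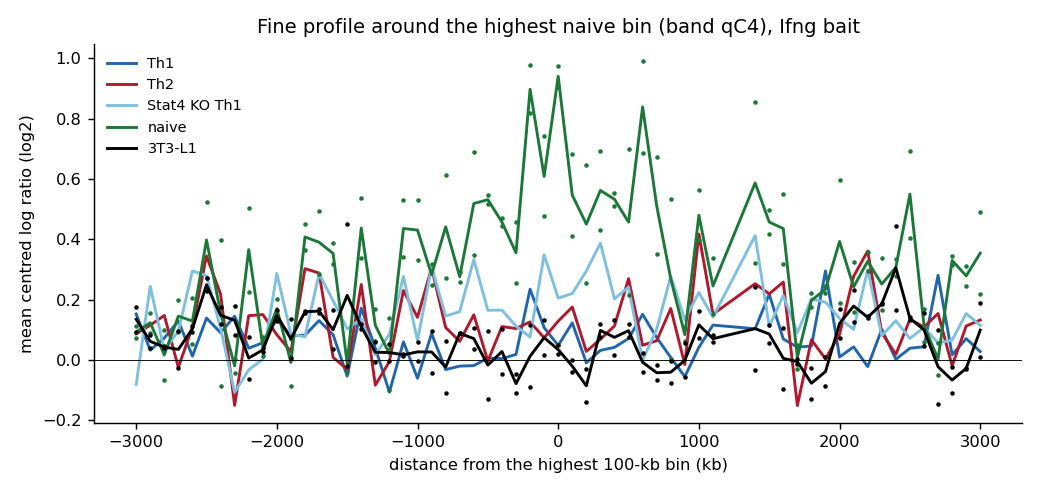
Mean centred log ratio (log2) in 100-kb bins against distance in kb from the highest naive bin in band qC4, lines being means of 2 arrays with the Ifng bait and dots the single naive and 3T3-L1 arrays; both naive dots, 0.90 and 0.98, lie above the other groups at the centre, where the 3T3-L1 arrays have 0.05 and 0.02. The central bin was chosen for that separation.

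In 100-kb bins the naive peak was highest in chr16:92800001-92900000, with 0.90 and 0.98 in naive cells from 15 probes. The other 8 Ifng arrays had -0.01 to 0.36 there, and the Il4 arrays -0.08 to 0.20. The bin was chosen for naive cells above the other 8 Ifng arrays, so that separation was set by the choice. In chr16:93400001-93500000 the naive arrays of the Il4 bait had 0.58 and 0.51, beside 0.69 and 0.99 with the Ifng bait. Both naive arrays of the Ifng bait lay above the other 8 Ifng arrays in an unbroken run of 200 kb, chr16:92800001-93000000. In chr16:92500001-93000000, 24.7% and 32.9% of the 85 probes were among the highest 5% in naive cells. Shares were 10.6% and 7.06% in Th1, 4.71% and 9.41% in Th2 and 4.71% in both 3T3-L1 arrays. By the median of probes the change in the region chr16:91000001-94500000 was -0.17 in place of -0.37.

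Th1 and Th2 cells did not differ in any chromosome 16 bin by limma with adjustment, beside 2.65% of all bins. At an unadjusted p under 0.05 there were 17 bins, or 8.95%, beside 15.5% of all bins. The bins closest to passing were chr16:74000001-74500000, with 0.05 and 0.11 in Th1 and -0.08 and -0.03 in Th2 cells, and chr16:83500001-84000000 (limma, adjusted p = 0.158 and 0.186). Neither passed.

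Loss of Stat4 was measured in cells cultured under the same Th1 treatment. Of the bins, 2, or 1.05%, were higher in Stat4 knockout than in wild-type Th1 cells, both in qC4. Of all bins 1.89% were called, 1.87% higher. Bin chr16:96000001-96500000 had 0.24 and 0.13 in the knockout and -0.07 and -0.01 in Th1 cells, a change of 0.22 ± 0.05 (limma, adjusted p = 0.0372). Bin chr16:92000001-92500000 had 0.18 and 0.20 against -0.02 and -0.01, a change of 0.20 ± 0.05 (limma, adjusted p = 0.0408). No bin was called without Th1 replicate 1 or without Th1 replicate 2, 1 was called without either knockout array, and 0 with the replicate number as a block. The knockout arrays form an inferred serial series of their own, so series and genotype cannot be told apart.

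With the Il4 bait no chromosome 16 bin passed in any of the 4 comparisons by limma. The highest naive bins of this bait were chr16:32500001-33000000 with a mean of 0.40 and chr16:93000001-93500000 with 0.31. The count at an unadjusted p under 0.05 was 5 for Th1 against naive, 6 for Th2 against naive, 9 for Th2 against Th1 and 5 for Stat6 knockout against Th2. These are 2.63%, 3.16%, 4.74% and 2.63% of the chromosome's bins. Each is a lower share than over all bins, where 5.10%, 5.36%, 6.31% and 7.61% had such a p. All bins include those of chromosome 11 beyond 1 Mb from the bait. After adjustment 0.119%, 2.23%, 0.219% and 0.0199% of all bins passed. The bin nearest to passing was chr16:93000001-93500000 in qC4, with 0.27 and 0.35 in naive and 0.06 and 0.07 in Th2 cells, a change of -0.24 ± 0.06 (limma, adjusted p = 0.0906). In chr16:32500001-33000000 of qB3 the naive arrays had 0.28 and 0.53 and the Th2 arrays 0.08 and 0.14 (limma, adjusted p = 0.122). The latter bin passed without Il4 naive replicate 1.

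Bin chr16:17000001-17500000 in qA3 stood out with the Il4 bait in Th1 cells, at 0.32 and 0.39, against 0.07 and 0.12 in naive and 0.07 and 0.01 in Th2 cells. The arrays did not overlap, which also held in 34.7% of all bins for Th1 against naive and 45.2% for Th2 against Th1. Neither Th1 against naive (limma, adjusted p = 0.594) nor Th2 against Th1 (limma, adjusted p = 0.132) passed. With the Ifng bait the order was another: naive cells had 0.18 and 0.31 and Th1 cells 0.05 and 0.04. For Th1 against naive the second smallest p was that of chr16:93000001-93500000, a change of -0.17 (limma, adjusted p = 0.867), and for Th2 against Th1 that of chr16:94500001-95000000, a change of -0.16 (limma, adjusted p = 0.581). The 2 bins nearest to passing for Stat6 knockout against Th2 were chr16:36000001-36500000, 0.15 higher, and chr16:38500001-39000000, 0.16 higher (limma, adjusted p = 0.6 for both).

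In naive cells the 2 baits differed in 2 bins, or 1.05%, which form chr16:92500001-93500000 in qC4. Of all bins 0.287% differed, 0.265% higher with Ifng and 0.0221% lower. The Ifng arrays had 0.60 and 0.61 and the Il4 arrays 0.21 and 0.22. The best bin, chr16:92500001-93000000, was higher by 0.52 ± 0.05 with the Ifng bait (limma, adjusted p = 2.11e-06). A call remained inside the region in 9 of 10 alternatives that kept 500-kb bins, under some of them in 1 bin only. It was lost by the median of probes, with a change of 0.08 (limma, adjusted p = 1). The change from naive to Th1 cells differed between the baits in 3 bins (limma, 0.507% of all bins), and that from naive to Th2 cells in 1 (0.0882%). The count of bins that differed between the baits in naive cells was 7 without Il4 naive replicate 2 and 1 without any other array of the 2 groups.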

How the data were processed

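The values are log2 ratios of 4C product over cut genomic DNA per probe, deposited by the authors as normalized. Their log base was not given and was taken as 2, and scanner software, filters and genome build are not given in the sources used here. Probe positions fitted the chromosome ends of mm8 (0 of 21 chromosomes with a probe past the end) and not those of mm7 (15), mm9 (5) or mm10 (8). In 7 of 9 groups 99.5% or more of the 2 arrays' sorted values were equal within 0.01, against 42.8% for Ifng Th1 and 10.8% for Il4 Th2. From each array's values the median over probes that are not on the chromosome of the bait was subtracted, and the rest averaged in 500-kb bins. Bins and bands were fitted with limma 3.58.1 in R 4.3.3, with a mean per group, over all arrays of a bait, and p-values were adjusted by Benjamini-Hochberg over all bins or bands, with a threshold of 0.05. Nothing says that replicates come from separate animals or cultures, so p-values measure the spread between arrays, which may be technical. Whether the near-equal sorted values in 7 of 9 groups narrow that spread was not tested. Python 3.11.15 made the tables (pandas 2.3.3, numpy 2.4.6, scipy 1.17.1) and the plots (matplotlib 3.10.9), and the fit was tested on simulated data.

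Band limits came from circlize 0.4.16, and genes were placed by the RefSeq table of GRCm38.p6 with a margin of 50 kb at band ends. Regions were named by the largest mean change, up to 6 each way for 3T3-L1 against the 3 wild-type T cell groups (non-overlapping arrays only) and up to 3 each way otherwise, and where none passed, the 2 bins of smallest p. The members and gene lists were chosen with earlier results of these data known. Alternatives were 1000-kb bins, the median per bin, quantile normalization, scaling by array spread, no centring, the compared groups alone, replicate number or serial series as a block, and leaving out each array. The last of these for bands and for the difference between baits, quantile normalization for bands, and gene density without Ifng Th1 replicate 2, were chosen after seeing the data.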

Additional observations from a re-analysis of the deposited data

Results flagged for a closer look

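The change from naive to differentiated T cells was compared between the 2 baits with a test of the difference itself (limma, groups of 2 arrays). For Th1 against naive cells, 3 of 190 chromosome 16 bins passed, beside 0.507% of all bins. The change with the Ifng bait minus that with the Il4 bait was -0.52 in chr16:92500001-93000000 (limma, adjusted p = 0.000802), -0.46 in chr16:17000001-17500000 (adjusted p = 0.0206) and -0.41 in chr16:92000001-92500000 (adjusted p = 0.0305). The first passed in 8 of 8 fits that each left out 1 array, and the other two in 3 of 8 each. These differences, like those for Th2 below, were refitted only by leaving out arrays, and not by the median of probes. By that median the difference between baits in naive cells, in the region that holds the first bin, was not called.

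For Th2 against naive cells 1 bin passed, beside 0.0882% of all bins. It was chr16:92500001-93000000 again, with -0.47 (limma, adjusted p = 0.00443), and it passed in 7 of 8 such fits, the exception being without Il4 Th2 replicate 1 (adjusted p = 0.0685). Both comparisons share the naive arrays of each bait.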

How the results depend on the processing

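All results kept their direction under every alternative run, and over the named regions 424 values kept their side of the threshold, 81 lost the call and 2 gained it. The counts are of called chromosome 16 bins, and the cause of each change was not tested, except that 1000-kb bins are fewer by construction. In 1000-kb bins, 3T3-L1 had 31 against the wild-type groups, 49 against naive and 21 against Th1 cells, and the baits differed in 1. By the median per bin these were 31, 38, 13 and 0, with 18 against Stat4 knockout, 14 for Th1 and 1 for Th2 against naive, 2 for Th1 against Th2 and 0 for Stat4 knockout against Th1. With quantile normalization the counts were 12 for Th1 and 5 for Th2 against naive, 0 for Stat4 knockout against Th1 and 1 between baits. With scaling they were 3, 3, 0 and 1, and 1 for Il4 Th2 against naive. With the compared groups alone they were 5 for Th2 against naive, 1 for Stat4 knockout against Th1 and 1 between baits. With serial series as a block they were 10 and 2 for Th1 and Th2 against naive and 1 between baits, and this block could not be fitted for 3T3-L1 or the knockouts. The level difference of 0.069 was 0.038 by the median of probes, 0.077 with quantile normalization, 0.077 without centring and 1.88 in units of array spread.

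With the replicate number as a block, Stat4 knockout against Th1 cells had 0 called bins in place of 2, and no other count moved by over 1.5 times. Same-numbered arrays shared only a number: their deviations correlated between -0.19 and 0.26 with the Ifng bait and between -0.39 and 0.34 with the Il4 bait.

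Leaving out each array gave 29 to 53 bins for 3T3-L1 against the wild-type groups, 36 to 67 against naive, 18 to 24 against Th1, 19 to 23 against Th2 and 19 to 28 against Stat4 knockout cells. It gave 8 to 30 for Th1 and 6 to 16 for Th2 against naive, 0 to 1 for Stat4 knockout against Th1, 0 to 1 for Il4 Th2 against naive and 1 to 7 between baits. The level difference ran from 0.065 to 0.073, and called T cell bands from 2 to 13 around 12, being 2 without Ifng naive replicate 2 and 3 without Ifng Th1 replicate 1. The 2 arrays per group limit the precision.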
